A study of Mus musculus with 21 samples.

Results

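Liver of JNK1 knockout mice was compared with liver of wild-type mice, both fed a high-fat diet. The members are the 3 arrays whose titles name JNK1 knock-out liver (KO 1, KO 2 and KO 3) and the 3 whose titles name wild type liver (WT 1, WT 2 and WT 3). These are 6 of the 21 arrays of the series, which also holds 8 of epididymal fat and 7 of skin. All mice were male, of the strain background C57Bl6/J and 45 weeks old, and both genotypes had the diet from the age of 5 weeks to 44 weeks. The labels do not say which part of *Mapk8*, the gene of JNK1, was removed, whether the wild types were littermates, or whether each array came from its own mouse. The p-values below therefore measure the spread between these samples, which may in part be technical. The series text speaks of quadruplicates; 3 arrays a genotype were analysed here.

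JNK1 is a stress-activated protein kinase. It is switched on by inflammatory cytokines, saturated fatty acids and stress of the endoplasmic reticulum (ER), and it phosphorylates transcription factors such as c-Jun and proteins of insulin signalling. The liver of a mouse on a high-fat diet stores fat in lipid droplets, makes cholesterol, bile acids and most plasma proteins, and runs many of these tasks under a daily clock.

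Each array measured 1 sample of total RNA from whole tissue with 1 dye. A level is the log2 intensity of a probe after the 75th percentile of all probes on that array was subtracted, and a difference is the mean KO level minus the mean WT level, so that a difference of 1 is a factor of 2. The 6 arrays correlated at 0.972 to 0.983 over all probes, and 45.7% to 48.2% of the probes were well above background. Of 27558 gene names, 13348 were above background on at least 3 arrays and were tested with limma. A gene was called when its p, adjusted by Benjamini-Hochberg over all 13348, was below 0.05. With 3 arrays against 3, an exact permutation test of a single gene cannot go below a p of 0.1, so limma's model across genes carries the tests.

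The test called 3 genes, all lower in the knockout: *A930038B10Rik*, *Gdf10* and *Lrit1*. They are 0.0225% of the genes tested, and 0 genes were called higher. At an unadjusted p below 0.05, 487 genes (3.65%) were lower and 320 (2.4%) higher. The knockout and wild-type arrays did not overlap for 830 genes lower (6.22%) and 641 higher (4.8%) in the knockout. The median difference over all genes was -0.0048. Those percentages are the background against which every count below is read.

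The tissue label was checked first. All 10 hepatocyte markers were above background on every array, and their mean level was 6.85 to 7.32 on the knockout arrays and 6.91 to 7.02 on the wild-type arrays. Transcripts of the exocrine pancreas were present as well, on an uneven subset of arrays. The 14 tested markers of pancreatic acinar cells, which secrete digestive enzymes, had mean levels of 4.14, 4.40 and 5.21 on KO 1 to 3 and of -1.52, -2.52 and 4.03 on WT 1 to 3. All 3 knockout arrays and WT 3 were high, and WT 1 and WT 2 were low. The log2 of the summed level of all 15 markers on the array was 8.58 to 9.69 in the knockout and 2.25 to 8.83 in the wild type.

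The enzymes themselves were as uneven. *Clps*, the cofactor of pancreatic lipase, was at 5.39, 5.49 and 6.71 on the knockout arrays and at -0.91, -2.09 and 5.58 on the wild-type arrays. *Prss2*, a trypsinogen, was at 4.81, 4.83 and 5.86 against -1.98, -2.83 and 4.91. *Pnlip*, pancreatic lipase, was at 4.52, 4.29 and 5.58 against -2.66, -1.97 and 4.34. In each of the 3 genes WT 3 lay within the knockout range. All 14 tested markers had a higher mean in the knockout and all 14 had an unadjusted p below 0.05, with a median difference of 4.57 (4.44 with the gene that the wild type did not measure at its bound). Their groups did not overlap for 2, *Reg2* and *Cela1*. Against WT 3 alone the median difference was 0.27, with 11 markers higher and 3 lower.

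*Ctrc*, *Zg16* and *Amy2a5*, which encode a chymotrypsin, a zymogen granule protein and a pancreatic amylase, had differences of 4.79, 4.63 and 4.29. They followed the same arrays, with WT 3 at 6.14, 3.81 and 4.75 and both other wild types below 0. *Reg2*, a secreted lectin of the acinar cell, was the exception. It was at -1.50, 0.58 and -1.47 on the knockout arrays and at -5.46, -5.48 and -5.52 on the wild-type arrays, where no array was above background. *Reg2* was thus at least 6.33-fold higher in the knockout; its adjusted p was 0.112, and the gene was not called. The bound, used for every "at least" below, sets the mean of the brighter group against the weakest signal still measured on the arrays of the dimmer group. It holds for the levels as computed here, not for other background corrections.

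Marker lists of other cell types varied between arrays in other patterns, and the source of these transcripts was not tested. The mean level of 10 keratinocyte markers was 0.53, 2.08 and -1.53 on the knockout arrays and -1.89, -1.63 and 1.84 on the wild-type arrays, so it was highest on KO 2 and WT 3. The mean of 18 skeletal muscle markers was 1.32, 0.19 and -2.75 against -0.33, -2.74 and 1.09. The mean of 5 neutrophil markers was highest on KO 2, at 1.56, and between -1.15 and -0.03 on the others. None of these lists split the genotypes. The mean of 7 adipocyte markers was 0.69 and 0.73 on KO 1 and KO 2 and 0.90 to 1.0 on the wild types, and it was lowest on KO 3, at -0.64. In whole tissue, fewer cells of a type and less RNA per cell cannot be told apart.

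**Figure D1:**
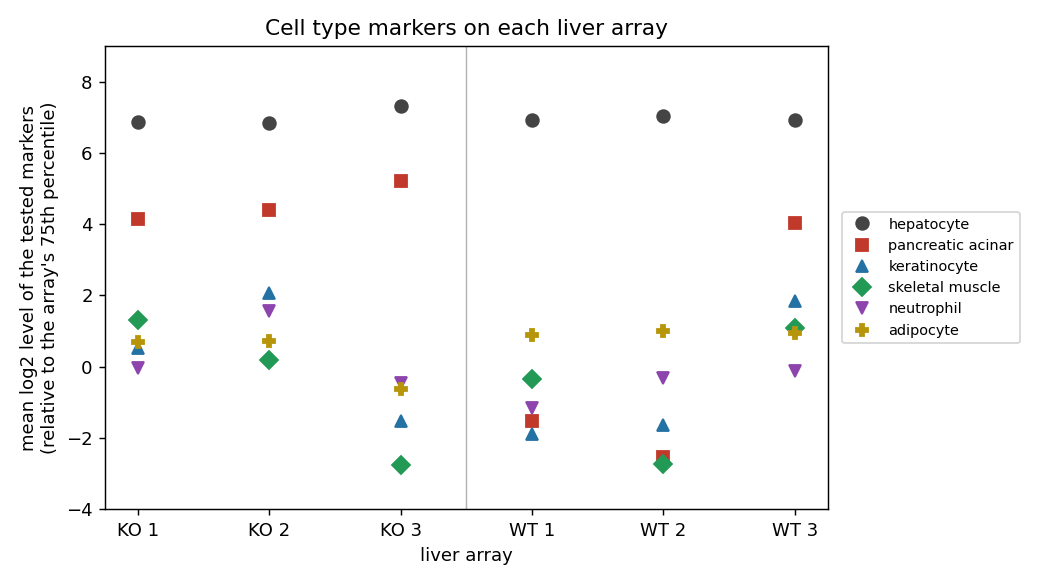
Mean log2 level of the tested markers of 6 cell types (vertical axis, minus the 75th percentile of all probes) on each of the 6 liver arrays (horizontal axis); each point is 1 list on 1 array, with no error bar. Pancreatic acinar markers were at 4.14 to 5.21 on the knockout arrays and at 4.03 on WT 3, and below 0 on WT 1 and WT 2, while hepatocyte markers stayed between 6.85 and 7.32.

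The targeted gene was lower on the knockout arrays. The brightest *Mapk8* probe (mm9 chromosome 14, 34204748 to 34204807) read -3.22, -4.68 and -4.48 on KO 1 to 3 and -1.98, -1.68 and -1.61 on WT 1 to 3. Every knockout array was below every wild-type array, and 1 of 3 knockout arrays was above background. The difference was -2.37 (SE 0.38), with an adjusted p of 0.216, so it was not called. The 5 *Mapk8* probes on the array differed by -0.04 to -2.37. Since the removed part is not given, a probe outside it would check nothing. *Mapk9*, which encodes the related kinase JNK2, was at -0.15, 0.09 and -0.08 against 0.22, 0.47 and -0.71. Its difference was -0.04 (SE 0.31), and without KO 1, WT 1 or WT 2 it turned to 0.02, 0.07 or 0.20. *Mapk10*, the gene of JNK3, did not pass the filter.

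The rest of the JNK pathway differed little. Of its 22 tested genes 9 were higher and 13 lower, and *Mapk8* was the only 1 with an unadjusted p below 0.05. Among the kinases and scaffolds upstream of JNK the median difference was 0.03 over 9 genes, and among its 6 target factors -0.26, with a range of -0.45 to 0.09. *Junb*, a subunit of the AP-1 transcription factor, was at 3.27, 3.44 and 3.81 against 4.06, 4.11 and 3.71, and its groups overlapped. *Jun*, the substrate that gave JNK its name, had a difference of -0.23 (SE 0.29).

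All 3 called genes lie on chromosome 14 near *Mapk8*. *Gdf10*, a secreted growth factor of the TGF-beta family, has its probe 0.54 Mb from the *Mapk8* probe (34748161 to 34748220). It read -1.66, -1.86 and -1.76 on the knockout arrays and 0.34, 0.27 and 0.50 on the wild-type arrays. *Gdf10* fell by 2.13 on the log2 scale (SE 0.15, adjusted p = 0.0113), and all 6 arrays were above background. The knockout arrays lay close together and all below the wild types.

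*A930038B10Rik*, a transcript without an assigned function, lies 1.37 Mb away (35579050 to 35579109). It read -5.45, -4.31 and -5.23 on the knockout arrays, none above background, and 0.63, 0.36 and 0.28 on the wild-type arrays. It fell at least 13.7-fold, with a measured difference of -5.42 (SE 0.30, adjusted p = 0.00615). *Lrit1*, a leucine-rich repeat membrane protein best known from the retina, lies 3.67 Mb away (37878039 to 37878098). It read -4.16, -2.92 and -3.01 against 0.93, 0.87 and 0.82, and fell at least 16-fold (measured difference -4.24, SE 0.33, adjusted p = 0.0186). By these probes both transcripts were clearly measured on all wild-type arrays and on no knockout array. Another *A930038B10Rik* probe (35583482 to 35583541) was above background on no liver array of either genotype and differed by 0.04.

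A pair of neighbours had values of the same order without passing. *Lrit2*, which adjoins *Lrit1*, was at -5.46, -4.50 and -5.36 against -2.42, -2.92 and -2.02. Its difference was -2.66 (adjusted p = 0.112), at least 1.87-fold lower. *Fam25c*, a small protein of little known function 0.96 Mb from *Mapk8*, was at 1.58, 3.06 and 1.45 against 5.01, 5.30 and 4.90, a difference of -3.04 (adjusted p = 0.16). Neither gene's groups overlapped.

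Within 10 Mb of the *Mapk8* probe 91 genes were tested, of which 11 were lower and 1 higher at an unadjusted p below 0.05. A measured difference below -2 was seen for 6 of the 91: *Mapk8*, *Gdf10*, *Fam25c*, *A930038B10Rik*, *Lrit1* and *Lrit2*. For *Lrit2* the knockout was not above background and the bound is smaller, 1.87-fold, and for *Mapk8* 1 of 3 knockout arrays was above background. All lie at the *Mapk8* probe or on the side of larger coordinates. On the rest of chromosome 14, 1 of 361 tested genes was below -2, and on the other chromosomes 14 of 12896. The median of the 91 was -0.0026, against -0.004 on the other chromosomes, so most genes of the region were level. *Arhgap22*, a regulator of Rac whose probe is 0.02 Mb from that of *Mapk8*, differed by -0.60 with overlapping groups. *Il17rb*, a receptor for interleukin 25, 3.40 Mb to the other side, differed by -0.88, and *Ccdc66*, a coiled-coil protein, by 0.54.

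Whether the 3 genes passed depended on single arrays, while leaving single arrays out hardly moved their differences. Without KO 3 the differences of *A930038B10Rik*, *Gdf10* and *Lrit1* were -5.30, -2.13 and -4.42, and the adjusted p was 0.0546, 0.0777 and 0.0777. Leaving out KO 3, WT 1 or WT 2 in turn left 0 called genes (646, 541 and 685 at an unadjusted p below 0.05), and leaving out WT 3 gave 27. Of those, 24 were higher, and they include pancreatic enzymes such as *Prss2*, *Pnlip*, *Clps* and *Ctrc*.

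**Figure D2:**
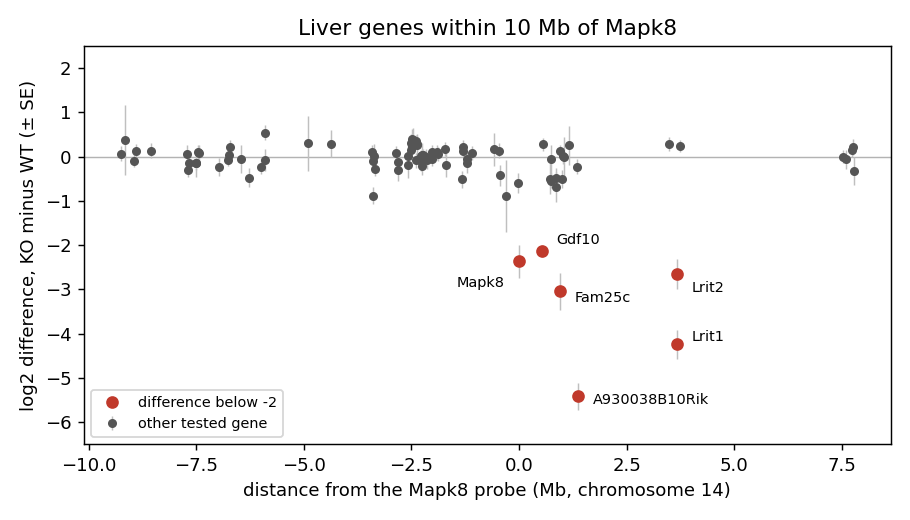
Log2 difference, KO minus WT with its standard error (vertical axis), of the 91 liver genes tested within 10 Mb of the Mapk8 probe, against distance from that probe in Mb (horizontal axis); red points are the 6 genes below -2. Those genes, Mapk8 to Lrit2, lie between 0 and 3.68 Mb on the side of larger coordinates, and the other genes lie near 0.

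ER chaperones and folding factors were higher in the knockout as a group. When unfolded protein gathers in the ER, the sensors IRE1, PERK and ATF6 switch on genes for chaperones, disulfide enzymes and degradation. Of 33 tested genes of this list 28 were higher and 5 lower; 10 were higher at an unadjusted p below 0.05 and none lower, and 14 were higher without overlap. The median difference was 0.27, against -0.0048 over all genes. None passed after adjustment over all genes. The mean level of the list was 3.97, 4.03 and 4.05 on KO 1 to 3 and 3.68, 3.69 and 3.67 on WT 1 to 3.

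The 9 chaperones were all higher, 8 of them without overlap, with a median of 0.40. *Hspa5*, the gene of BiP, the main ER chaperone of the HSP70 type, was at 6.60, 6.83 and 6.74 on the knockout arrays and at 5.77, 6.30 and 5.75 on the wild-type arrays, a difference of 0.78 (adjusted p = 0.484). *Hyou1*, which helps BiP release its nucleotide, was at 4.36, 3.96 and 4.23 against 3.22, 3.55 and 2.38, a difference of 1.13 (adjusted p = 0.572). *Sdf2l1*, *Dnajb11* and *Hsp90b1*, partners of BiP and the ER chaperone of the HSP90 type, differed by 0.70, 0.47 and 0.40. In every 1 of these 5 genes the lowest knockout array was above the highest wild type.

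Disulfide enzymes and secreted or quality control factors had medians of 0.24 and 0.13, with a few members well above. *Creld2*, an ER disulfide isomerase, was at 5.95, 6.03 and 5.57 against 4.54, 4.88 and 4.30 and differed by 1.27 (SE 0.21, adjusted p = 0.232). *Pdia4*, another disulfide isomerase, was at 3.68, 3.62 and 3.79 against 2.87, 2.74 and 2.75 and differed by 0.91 (SE 0.14, adjusted p = 0.207). *Manf*, a stress-induced secreted factor, was at 4.03, 4.40 and 3.95 against 2.80, 3.31 and 3.20 and differed by 1.02 (adjusted p = 0.36). Of the genes of ER-associated degradation, *Syvn1*, the ubiquitin ligase HRD1 (0.53), and *Sel1l*, its adaptor (0.38), were also above the wild type. Other such members were mixed when set against WT 3 and against WT 1 and WT 2. In that order *Derl2* differed by 0.41 and 0.04 and *Herpud1* by -0.09 and -2e-04, and *Derl1*, *Derl3* and *Edem1* changed sign. Of the 4 sensors and factors of the response none had an unadjusted p below 0.05, and *Xbp1*, the factor that IRE1 activates by splicing, differed by 0.34 with overlapping groups. Fitted with all 20 arrays, *Creld2* had an adjusted p of 0.0204, and of 0.276 with slide as a fixed block in that fit; over all alternatives it ranged from 0.0201 to 0.905.

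Acinar cells are rich in ER, and these values were also set beside WT 3, the wild-type array with the pancreatic transcripts. WT 3 lay below all knockout arrays for 21 of the 33 genes and above all of them for 4. The median difference was 0.34 against WT 3 and 0.28 against WT 1 and WT 2. These values rest on WT 3 as a lone wild-type array, and the part of the pancreatic transcripts in the difference was not tested further.

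The promoters of these genes carry a known control element. The ER stress element, bound by NF-Y and ATF6, reads CCAAT followed after 9 bases by CCACG. It was searched on both strands from 250 bases before to 50 bases after the start of transcription in RefSeq promoters of GRCm38.p6. It was found in 9 of the 29 list members with a promoter (31%) and in 37 of all 27025 promoters (0.137%). The list was chosen for this response, so the share is a description. The 250 bases before the start are shown for 4 members, *Hspa5* (chr2:34771840-34772089, plus strand), *Creld2* (chr15:88819396-88819645, plus strand), *Hsp90b1* (chr10:86705445-86705694, minus strand) and *Syvn1* (chr19:6046326-6046575, plus strand), because they were higher in the knockout and show the element in both orientations. Capitals mark its conserved blocks.
Hspa5: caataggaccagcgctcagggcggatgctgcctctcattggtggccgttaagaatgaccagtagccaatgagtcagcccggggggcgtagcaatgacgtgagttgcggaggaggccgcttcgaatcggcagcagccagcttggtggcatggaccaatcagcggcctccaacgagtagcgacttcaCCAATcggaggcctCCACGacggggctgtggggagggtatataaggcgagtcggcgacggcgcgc
Creld2: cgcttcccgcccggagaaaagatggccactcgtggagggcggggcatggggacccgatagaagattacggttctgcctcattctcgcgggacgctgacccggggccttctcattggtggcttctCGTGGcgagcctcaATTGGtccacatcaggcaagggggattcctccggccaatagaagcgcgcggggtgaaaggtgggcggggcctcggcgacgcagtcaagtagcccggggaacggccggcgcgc
Hsp90b1: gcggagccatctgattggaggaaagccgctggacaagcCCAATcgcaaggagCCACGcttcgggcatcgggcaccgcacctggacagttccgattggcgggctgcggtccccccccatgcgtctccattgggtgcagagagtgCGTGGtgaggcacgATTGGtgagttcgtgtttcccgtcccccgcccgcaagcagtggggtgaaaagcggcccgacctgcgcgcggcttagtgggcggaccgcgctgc
Syvn1: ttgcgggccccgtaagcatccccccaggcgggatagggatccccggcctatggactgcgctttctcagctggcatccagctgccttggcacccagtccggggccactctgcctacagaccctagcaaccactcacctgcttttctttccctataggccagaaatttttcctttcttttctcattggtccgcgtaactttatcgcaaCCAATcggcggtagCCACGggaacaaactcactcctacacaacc

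In *Creld2* the element stands on the opposite strand, and *Hsp90b1* holds 2, 1 in each orientation. The members with the element were *Calr*, *Canx*, *Creld2*, *Derl3*, *Dnajc3*, *Hsp90b1*, *Hspa5*, *Pdia6* and *Syvn1*, and 8 of these 9 were higher in the knockout, with a median difference of 0.39. Of the 20 members without it 17 were higher, with a median of 0.23. *Pdia4*, at 0.91, was the highest of the latter.

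Targets of ATF4, the factor that PERK and amino acid shortage bring up, were also mostly higher. Of 30 tested genes 26 were higher, 5 at an unadjusted p below 0.05 and 8 without overlap, with a median of 0.20. *Asns*, asparagine synthetase, was at 1.09, 0.03 and 0.22 against -0.90, -0.72 and -0.71 and differed by 1.23 (adjusted p = 0.426). All wild-type arrays were close together, and KO 1 was highest. All 8 aminoacyl-tRNA synthetases were higher, by 0.05 to 0.46, with *Yars* at 0.46 and *Wars* at 0.35. *Psph*, the last enzyme of serine synthesis, differed by 0.61, *Ddit4*, an mTORC1 inhibitor, by 0.44 and *Atf4* itself by 0.65. *Fgf21*, a fasting and stress hormone of the liver, differed by 0.88 with overlapping groups, and *Ddit3*, the gene of CHOP, by 0.16. WT 3 lay below all knockout arrays for 20 of the 30 genes and above all for 2, and the median was 0.47 against WT 3 and 0.23 against WT 1 and WT 2. An amino acid response element (TGATGCAAT, both strands, the same window) was found in 4 of 29 members with a promoter (13.8%; *Aars*, *Fgf21*, *Nupr1* and *Pycr1*) and in 0.222% of all promoters.

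**Figure D3:**
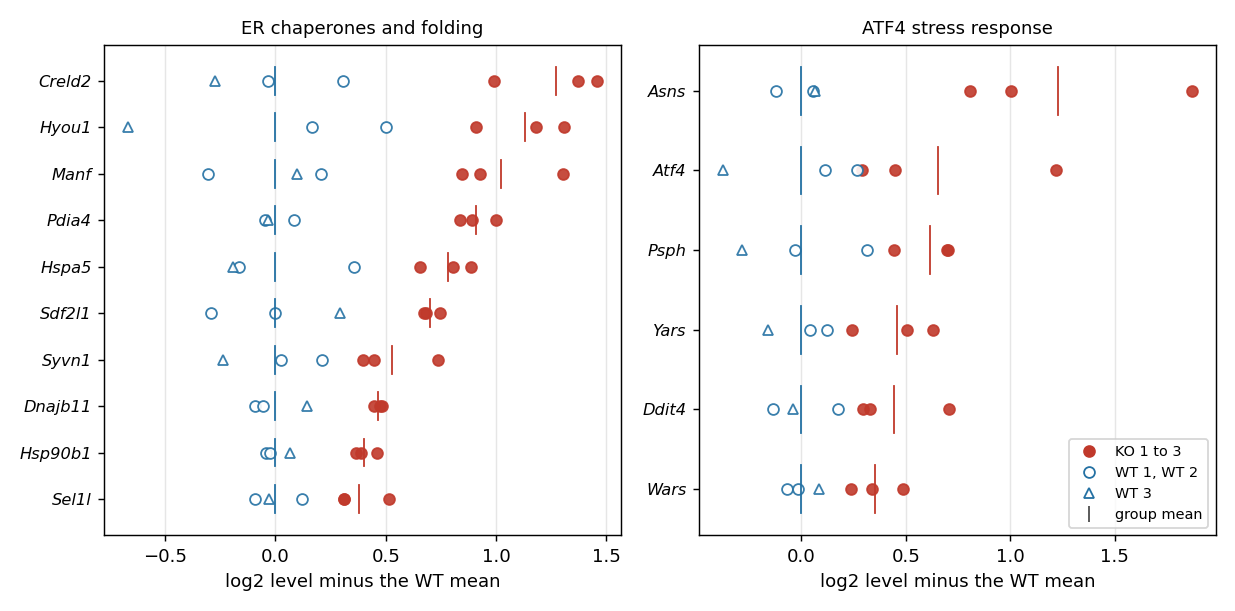
Log2 level minus the wild-type mean (horizontal axis) of 10 ER chaperone and folding genes (left) and 6 ATF4 target genes (right); filled points are KO 1 to 3, open circles WT 1 and WT 2, triangles WT 3, and vertical ticks the group means. For each gene drawn the knockout points lie to the right of all wild-type points, WT 3 included.

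Clock genes differed in opposite directions by their place in the loop. The clock runs on the activators BMAL1 (*Arntl*) and CLOCK, whose targets of the PER, CRY and REV-ERB families repress them in turn, and it drives output factors such as DBP. Of 19 tested genes 3 were higher and 7 lower at an unadjusted p below 0.05, and 3 higher and 8 lower without overlap, with a median of -0.52. The activator arm had a median of 0.82 over 5 genes. The repressor arm was lower in 7 of 7 genes, with a median of -0.72, and the outputs were lower in 6 of 7, with a median of -0.75. None passed after adjustment.

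*Arntl* was at 0.39, 0.34 and -0.11 on the knockout arrays and at -1.57, -1.50 and -2.25 on the wild-type arrays, a difference of 1.98 (SE 0.25, adjusted p = 0.112). *Nfil3*, a repressor that is itself in antiphase to DBP, was at 2.53, 2.72 and 2.95 against 1.69, 1.99 and 1.30, and *Clock* differed by 0.82. All 3 knockout arrays were above all 3 wild types in each of these genes. *Dbp*, which activates rhythmic liver enzymes through D-box sites, was at 4.78, 5.54 and 5.63 against 7.45, 7.39 and 7.24, a difference of -2.04 (SE 0.25, adjusted p = 0.112). Its relatives *Tef* and *Hlf* differed by -1.16 (adjusted p = 0.329) and -0.52. *Usp2*, a rhythmic deubiquitinase, was at -2.82, -2.32 and -1.37 against 0.19, -0.20 and 1.63, a difference of -2.71 (adjusted p = 0.36). For these outputs every knockout array was below every wild type.

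Among the repressors, *Bhlhe40* (DEC1) was at 2.40, 2.56 and 2.31 against 3.28, 3.14 and 3.0, and *Nr1d2* (REV-ERB beta) differed by -0.83, both without overlap. *Per2* differed by -1.03 with overlapping groups, and by 0.04 when KO 1, KO 2 and WT 3 were left out. *Nr1d1*, the gene of REV-ERB alpha, was at 1.41, 1.75 and 1.94 against 2.15, 2.14 and 1.21, so WT 3 was the lowest of all 6 arrays. *Rgs16*, a brake on G protein signalling whose liver level is known to vary over the day, was at 2.69, 3.11 and 2.52 against 4.98, 4.57 and 5.48, a difference of -2.23 (adjusted p = 0.112). The labels give a light and dark cycle but no time of sampling. WT 3 lay above all knockout arrays for 13 of the 19 clock genes and below all of them for 4, and the median was -0.41 against WT 3 and -0.46 against WT 1 and WT 2.

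The E-box CACGTG, the site of BMAL1 and CLOCK, was searched in the same way. It was found in 6 of 20 clock members with a promoter (30%; *Bhlhe41*, *Ciart*, *Cry1*, *Per1*, *Tef* and *Tspan4*) and in 8.09% of all promoters. The share was also 27.8% among p53 and apoptosis genes and 25% among cholesterol genes. The clock list was chosen for this loop, so its share is a description. *Tef* is shown (chr15:81802423-81802672, plus strand) as the lowest of the 3 tested clock members that hold the E-box, which is in capitals.
Tef: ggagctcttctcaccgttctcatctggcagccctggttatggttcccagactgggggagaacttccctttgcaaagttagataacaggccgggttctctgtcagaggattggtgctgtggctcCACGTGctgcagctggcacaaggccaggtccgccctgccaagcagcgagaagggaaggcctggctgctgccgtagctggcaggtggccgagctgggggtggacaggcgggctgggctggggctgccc

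**Figure D4:**
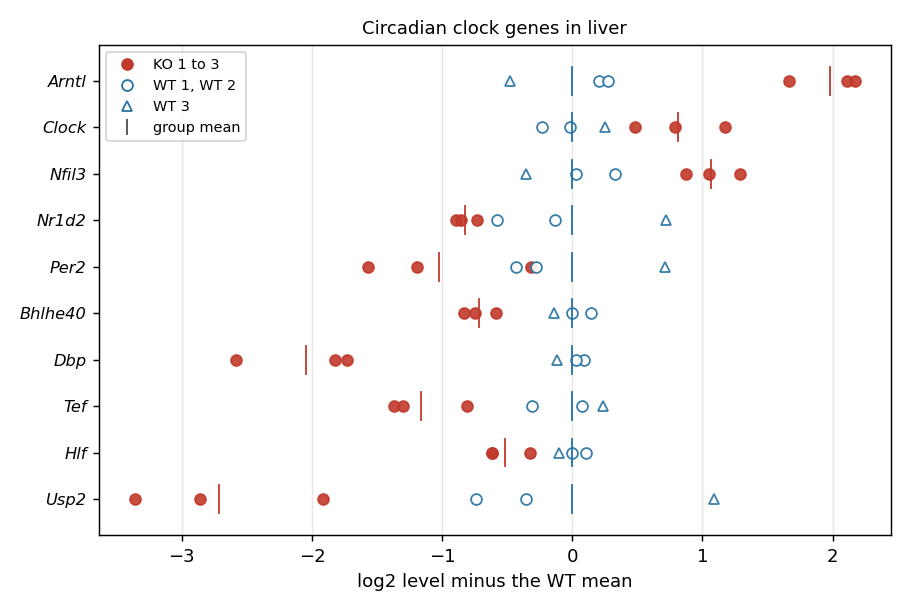
Log2 level minus the wild-type mean (horizontal axis) of 10 clock genes, ordered from activators to repressors to outputs; filled points are KO 1 to 3, open circles WT 1 and WT 2, triangles WT 3, and ticks the group means. Arntl, Clock and Nfil3 lie above 0 on all knockout arrays and the other 7 genes below 0; the groups touch for Per2.

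Genes of lipid droplets were lower, most of all on KO 3. Lipid droplets are the fat stores of the hepatocyte, and the CIDE and perilipin proteins on their surface rise in fatty liver. Of 24 tested genes 17 were lower, 6 at an unadjusted p below 0.05 and 7 without overlap, and none was higher by either measure. The median was -0.24. *Cidec*, which lets droplets fuse, was at 3.07, 3.70 and 0.77 against 5.27, 5.54 and 5.22, a difference of -2.83 (SE 0.69, adjusted p = 0.475). *Cidea*, its relative, was at 2.69, 3.97 and 0.59 against 4.76, 5.82 and 4.71, a difference of -2.68 (adjusted p = 0.622). *Plin4*, a droplet coat protein, was at 1.86, 1.98 and -0.29 against 3.06, 3.23 and 3.14, a difference of -1.96 (adjusted p = 0.618). KO 3 was the lowest array in all 3 genes, and KO 1 and KO 2 were also below every wild type. Without KO 3 the difference of *Cidec* was -1.96.

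*Mogat1*, an acyltransferase of triglyceride assembly, differed by -1.56. *Lpin2*, a phosphatidate phosphatase, and *Fitm2*, which helps droplets bud from the ER, differed by -0.61 and -0.49, and their groups did not overlap. *Plin2*, the commonest coat protein of liver droplets, was at 8.15, 8.27 and 7.94 against 8.55, 8.62 and 7.85, so WT 3 was lowest. *Cidec* and *Plin4* are also adipocyte genes. The mean of the adipocyte markers was lowest on KO 3, but *Cidec* is itself among them. Of the 7 tested adipocyte markers 6 were lower and 1 higher in the knockout, with a median of -0.69. At an unadjusted p below 0.05, 3 were lower and 1 higher. The 1 with a higher mean was *Adipoq*, the gene of the adipocyte hormone adiponectin. *Adipoq* was at -1.46, -1.72 and -3.41 against -3.22, -4.55 and -3.20, so it was higher on KO 1 and KO 2. The part of adipocyte RNA in the result was not tested. Against WT 3 alone the list had 12 genes higher and 12 lower and a median of 0.029, while against WT 1 and WT 2 the median was -0.43.

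Cholesterol synthesis genes were lower across the pathway. Their transcription is driven by SREBP2 when the ER runs short of sterol. Of 27 tested genes 23 were lower, 7 at an unadjusted p below 0.05 and 10 without overlap, against 1 higher by each measure. The median was -0.32, and it was -0.21 without KO 3. *Msmo1*, a sterol methyl oxidase, was at 4.57, 4.53 and 4.39 against 4.94, 5.08 and 5.05, a difference of -0.53 (adjusted p = 0.542). *Sqle*, squalene epoxidase, was at 0.73, 0.36 and -0.31 against 0.96, 0.98 and 1.49, a difference of -0.88 (adjusted p = 0.704). In both genes all knockout arrays were below all wild types.

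*Fdft1*, squalene synthase, and *Nsdhl* and *Dhcr7*, late sterol enzymes, differed by -0.49, -0.53 and -0.40. *Stard4*, a carrier of cholesterol, differed by -0.56. The member with an unadjusted p below 0.05 on the higher side was *Insig2*, at 5.78, 5.70 and 5.41 against 5.16, 5.25 and 4.37, a difference of 0.70; its protein holds the SREBP complex in the ER. WT 3 lay above all knockout arrays for 15 of the 27 genes and below all for 5. A sterol element was found by its letters in none of the 20 members with a promoter and in 0.0999% of all promoters, which says only that those letters are not in the window.

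**Figure D5:**
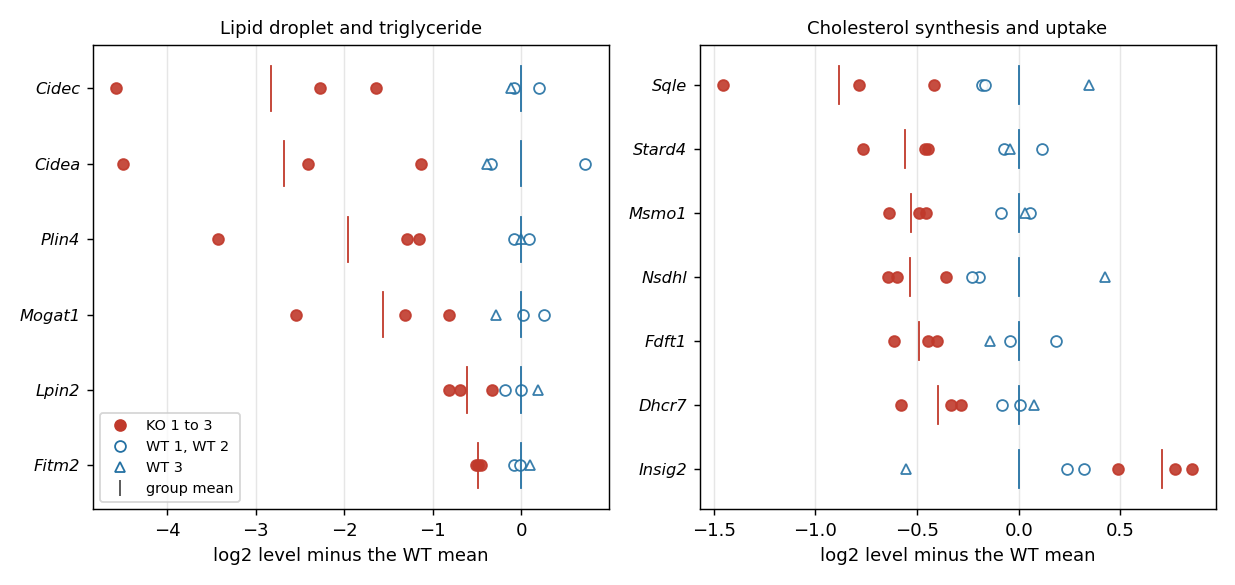
Log2 level minus the wild-type mean (horizontal axis) of 6 triglyceride and lipid droplet genes (left) and 7 cholesterol genes (right); filled points are KO 1 to 3, open circles WT 1 and WT 2, triangles WT 3, and ticks the group means. All genes drawn except Insig2 have every knockout point below every wild-type point, and KO 3 is the leftmost point for Cidec, Cidea, Plin4 and Mogat1.

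Genes of fatty acid synthesis were also lower as a group, and those of fatty acid oxidation had a median closer to 0. Of 14 synthesis genes 13 were lower, 3 at an unadjusted p below 0.05, with a median of -0.31 (-0.14 without KO 3). *Thrsp*, a lipogenic nuclear protein, was at 5.49, 6.19 and 5.45 against 6.35, 6.90 and 6.65, without overlap. *Fads2* and *Fads1*, the desaturases of polyunsaturated fatty acids, differed by -0.64 and -0.48. Of 31 targets of PPARA and genes of fatty acid oxidation 22 were lower, 8 at an unadjusted p below 0.05, with a median of -0.09. *Ppara* itself was at 4.79, 4.99 and 5.12 against 5.52, 5.52 and 5.89, a difference of -0.68 (adjusted p = 0.534). *Cpt1a*, the gate of fatty acids into mitochondria, differed by -0.52, and *Vnn1*, a pantetheinase, by -0.80, both without overlap. *Acot3*, a peroxisomal thioesterase, had the lowest value of the list, -2.08, with overlapping groups.

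Glucose and bile acid genes were near the level of all genes, with a few members apart. In the list of 25 genes of glucose production and insulin signalling the median was -0.04. *G6pc*, glucose-6-phosphatase, was at 6.28, 6.31 and 6.66 against 5.47, 5.69 and 5.99, a difference of 0.70 (adjusted p = 0.58). *Gys2*, liver glycogen synthase, and *Slc2a2*, the glucose transporter GLUT2, differed by -0.54 and -0.42, and the arrays of the genotypes did not overlap for any of these 3. The insulin receptor substrate *Irs1* differed by 0.41. The 25 bile acid and sterol transport genes had a median of 0.13, with *Nr0b2*, the repressor SHP, at 2.22, 2.39 and 2.94 against 1.66, 2.05 and 1.31. *Apoa4*, an apolipoprotein that follows liver fat, differed by -1.27 with overlapping groups.

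Genes with a known sex bias in mouse liver, all measured here in males, leaned in opposite directions by their bias. Of 19 male-biased genes 17 were higher (median 0.31), and of 18 female-biased genes 15 were lower (median -0.35). At an unadjusted p below 0.05, 3 male-biased genes were higher and none lower, and 5 female-biased genes were lower and none higher. None passed after adjustment. Without KO 3 the medians were 0.11 and -0.15. *Elovl3*, an elongase, was at 2.78, 2.49 and 3.23 against 0.90, 1.33 and -0.12, a difference of 2.13 (adjusted p = 0.294). *Hsd3b5*, a steroid dehydrogenase, was at 1.56, 1.68 and 5.74 against -0.97, 0.96 and 0.46, so KO 3 carried most of its difference of 2.85. *Susd4*, a complement inhibitor, differed by 1.59. Of the female-biased genes *Tox* and *Cyp17a1* differed by -0.67 and -0.71, each without overlap. Among 18 cytochromes P450, 11 were higher and 7 lower, with a median of 0.04 and a lowest difference of -0.54. At an unadjusted p below 0.05, 5 were higher and none lower, among them *Cyp2c54* (1.74), *Cyp2c37* (0.80) and *Cyp1a2* (0.78). *Sult1c2*, a sulfotransferase, was at 2.12, 1.96 and 1.89 against 3.19, 2.80 and 3.12, a difference of -1.05 (adjusted p = 0.216).

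Most tested genes of dividing cells, matrix and lipid-associated macrophages were lower, and the list medians came closer to 0 or passed it without KO 3. Of 27 cell cycle genes 25 were lower, 3 at an unadjusted p below 0.05, with a median of -0.45 and of -0.20 without KO 3. Of 30 fibrosis genes 25 were lower, with medians of -0.26 and -0.09. None of the 30 had an unadjusted p below 0.05, and 2 were lower and 1 higher without overlap. Of 17 genes of lipid-associated macrophages 15 were lower, 1 at an unadjusted p below 0.05, with a median of -0.19 that turned to 0.07 without KO 3. *Gpnmb*, a glycoprotein of such macrophages, was at -2.19, -3.65 and -5.77 against 2.31, 0.75 and 1.73, a measured difference of -5.46 (SE 0.87, adjusted p = 0.216). All 3 knockout arrays were below every wild type, but 1 of the 3 was above background, so the size of the difference is uncertain. Another *Gpnmb* probe was above background on no liver array of either genotype and differed by 0.09. The general list of Kupffer cells and macrophages had 11 of 16 genes higher, with a median of 0.07, and *Marco*, a scavenger receptor of Kupffer cells, was at 5.11, 6.91 and 4.88 against 5.06, 3.90 and 3.23. *Col1a2*, a fibrillar collagen chain, was at 4.02, 3.97 and 2.65 against 3.98, 4.24 and 4.41, so KO 3 stood alone. *Acta2*, the actin of stellate cells that have turned contractile, differed by 0.34.

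Interferon and inflammation genes differed little. Of 28 interferon-induced genes 21 were lower, 4 at an unadjusted p below 0.05, with a median of -0.17 (-0.07 without KO 3). *Ifit3* was at 0.79, 0.46 and 0.23 against 1.15, 1.36 and 1.34, *Usp18*, the brake on interferon signalling, differed by -0.94, and *Ifit2* was at least 2.04-fold lower. Of 20 cytokines and chemokines 10 were higher and 10 lower, and *Cx3cr1*, a receptor of monocytes, and the chemokine *Ccl9* differed by -0.86 and -0.56. Of 36 complement and coagulation genes none had an unadjusted p below 0.05, and the median was 0.08. The 23 acute phase genes had a median of 0.17. The 38 subunits of oxidative phosphorylation had 20 genes higher and 18 lower, none with an unadjusted p below 0.05, and a median of 0.01.

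Several genes of no list stood next in order of p. *Bcl7c*, a subunit of the SWI/SNF chromatin remodeller, was at 1.20, 2.07 and 1.75 against 3.83, 3.80 and 3.93, a difference of -2.18 (adjusted p = 0.104). *Slc5a6*, the transporter of biotin and pantothenate, was at 0.69, 1.02 and 0.70 against 2.44, 2.21 and 2.22, a difference of -1.49 (adjusted p = 0.104). *Ppp1r9a* (neurabin), *Adgrg2*, an adhesion receptor, and *Ell3*, an elongation factor of RNA polymerase II, differed by -1.63, -1.55 and -1.46, each with an adjusted p of 0.112. *Dact1*, which dampens Wnt signals, was at least 2.38-fold lower. *Tnfrsf19*, a receptor of the TNF family on chromosome 14, *Nrg4*, a growth factor that signals to ERBB4, and *Maff*, a small MAF factor, differed by -0.997, -1.05 and -1.19 (adjusted p = 0.207). All arrays of these genes stood apart by genotype.

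On the higher side the bound for *Akap6*, an anchor of protein kinase A, was 2.11-fold (adjusted p = 0.207). *Clpx*, the unfoldase of a mitochondrial protease, was at 4.46, 4.01 and 4.19 against 3.19, 3.18 and 2.84 (adjusted p = 0.216). *Slc45a3*, a membrane transporter, and *Avpr1a*, the vasopressin receptor of the hepatocyte, differed by 0.95 and 1.58. None of these passed after adjustment.

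Liver was then compared with the other tissues in 1 fit of 20 arrays, testing whether the difference between genotypes differed. Against fat 9 of 16041 genes passed (0.0561%), and against skin 30 of 14870 (0.202%). Without WT 3 the count against fat was 37, and without any other single liver array it was 2 to 5; against skin it was 40 without WT 3 and 2 to 6 without another. *Mapk8* differed by -2.38 in fat, close to the liver value, and by -1.86 in skin. In skin it was above background on 0 of 4 knockout arrays and on 2 of 3 wild-type arrays, so the size of that difference is uncertain. *A930038B10Rik*, *Lrit1* and *Lrit2* were above background on wild-type liver arrays and on no array of fat or skin, so the genotypes could not be compared there. *Bcl7c* was at 1.41 in knockout and 1.48 in wild-type fat and at 3.15 and 3.40 in skin. *Rgs16* was at -0.98 against -1.59 in fat and at -1.35 against -1.50 in skin, and in liver at 2.77 against 5.01. For both genes the difference in liver stood apart from both other tissues by the test of the difference, though the call was lost for *Bcl7c* in 6 of 9 alternatives for each tissue and for *Rgs16* in 1 of 9 against fat and 5 of 9 against skin.

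For others the tissues could not be told apart by that test. *Gdf10* differed by -0.99 in fat and -1.86 in skin, and *Gpnmb* by -4.08 and -4.42. *Fam25c* was at 8.19 in knockout and 8.23 in wild-type skin, above background on all skin arrays, and at 2.03 against 5.07 in liver. In fat it was above background on 1 of 4 knockout arrays and on no wild-type array. *Creld2* differed by -0.02 in each of fat and skin, yet its excess in liver of 1.29 had an adjusted p of 0.255 against fat and 0.106 against skin. *Pdia4* differed by 0.10 and 0.26, *Usp2* by 0.14 and -0.41 (adjusted p of the difference 0.177 and 0.178), and *Arntl* by 0.28 and -0.18 (0.813 and 0.213). A p that misses the threshold does not show that these tissues act alike.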

How the data were processed

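Total RNA of 6 liver samples, 0.2 ug each, was labelled with Cy3 and read on 1-colour Agilent arrays. Per the submitters' processing notes, Agilent Feature Extraction 10.7.3.1 and limma were used. Per the file headers, the deposited intensity (the processed signal) is background-subtracted; probe positions are mm9. The authors also deposited a log2 value table, whose normalization, centring and scale are not given in the sources used here; its liver columns correlated with the scanner intensity at 0.987 to 0.992, had medians of 5.78 to 5.87 and served as an alternative.

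From the deposited intensity, log2 minus the 75th percentile of each array was computed. The probe with the highest mean over the arrays stood for a gene, and genes well above background on at least 3 of 6 arrays were tested with limma 3.58.1 (R 4.3.3) in a 2-group fit with Benjamini-Hochberg adjustment. Of 41174 probes 27897 matched a RefSeq transcript; the others kept the file's name. Gene names with several probes numbered 8946, and 3 tested genes lacked a value on an array, which limma left out. For liver against fat and skin, 20 arrays of 6 groups were fitted; a file of fat (WT 2) did not enter, since its intensities and the value table correlated at 0.779 for that sample. By the barcode of each scan, KO 1 and KO 3 share a slide and the other 4 liver arrays lie on slides with no other liver array. No slide held liver of both genotypes, so slide and genotype cannot be told apart in the 6-array fit. The scripts were tested on simulated data. Precision is limited by the number of arrays, and no probe was saturated (0).

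Named genes are the JNK kinases, the called genes, the 10 highest and 10 lowest by p, up to 6 of each list by p with core members, the 8 with the smallest p within 10 Mb of *Mapk8*, the 5 highest and 5 lowest among genes whose groups did not overlap, and up to 4 of each marker list by level or with a range over 3. *Plin2*, *Nr1d1*, *Jun*, *Fgf21* and other core members were named for their role. The members and the gene lists were chosen with earlier results of these data known, so no list is independent support. Alternatives covered normalization, background, value table, filters, probes, variance model, slide, replicate block and left-out arrays. The same-number arrays' deviations from their group means correlated at -0.0955, -0.0581 and -0.2275, and those of arrays of unlike number at -0.219 to 0.2364. With 3 arrays a group these values cannot decide whether the numbers pair the samples.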

Additional observations from a re-analysis of the deposited data

Results flagged for a closer look

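In 1 limma fit of 20 arrays, the genotype difference (KO minus WT) in liver was compared with that in fat and in skin by a test of the difference itself. Of the 9 genes that passed against fat and the 30 against skin, 6 are described in the report. *Bcl7c* differed by -2.10 from fat (adjusted p = 0.023) and by -1.92 from skin (adjusted p = 0.0301). *Rgs16* differed by -2.84 from fat (adjusted p = 0.00724) and by -2.38 from skin (adjusted p = 0.0301). For these genes every array of all groups was above background. The other 4 genes were above background on no fat or skin array and entered the fit through liver alone. Their values restate the liver difference and do not compare the genotypes in another tissue: -5.28 against fat and -5.22 against skin for *A930038B10Rik*, -4.10 and -3.56 for *Lrit1*, -2.90 against skin for *Lrit2*, and 4.60 and 4.74 for *Reg2*.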

How the results depend on the processing

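The count of called liver genes was 3. It was 3 with quantile normalization, 11 with normexp, 5 in the value table, 6 with genes above background on all 6 arrays, 1 without a filter, 7 with every probe tested, 9 with an intensity trend, 20 with 20 arrays in the fit, 5 with slide as a fixed block there and 20 with slide as a random block, which was added after the data were seen. With an arm of 1 array, assumed to vary like the other group, it was 27 without KO 1, KO 2 and WT 3 together and 0 with only KO 1 to 3 and WT 3 (also added; 1176 genes at an unadjusted p below 0.05 in limma). It was 0 to 27 without single arrays (541 to 988 genes at an unadjusted p below 0.05). With the replicate block 0 genes were called, and 732 had an unadjusted p below 0.05. Whether the replicate numbers pair the samples is not known. Adjusted p ranged from 1.64e-06 to 0.357 for *A930038B10Rik*, 0.00581 to 0.77 for *Gdf10* and 0.000395 to 0.357 for *Lrit1*, with no change of sign. The differences of *A930038B10Rik*, *Gdf10* and *Lrit1* were -2.28, -1.35 and -2.40 with normexp, and -3.997, -1.79 and -3.75 in the value table. The normexp differences of *A930038B10Rik* and *Lrit1* were smaller than their bounds of 13.7-fold and 16-fold. Those bounds hold for the main processing only. The slide as a random block in the 6-array fit was not run because it could not be fitted. Against fat the count of 9 became 2 with the fat WT 2 file, 2 with slide as a fixed block and 2 to 37 without single arrays; against skin 30 became 0, 4 and 2 to 40, and 62 in the value table. Of 9 alternatives against fat and 9 against skin, the call was lost in 6 and 6 for *Bcl7c*, 7 and 8 for *Lrit1*, 1 and 5 for *Rgs16*, 3 and 2 for *Reg2*, 1 and 1 for *A930038B10Rik*, and against skin in 5 for *Lrit2*. List medians with slide as a fixed block were 0.23 (ER), -0.47 (cholesterol), -0.51 (lipid droplet) and -0.91 (clock). Without KO 1, KO 2 and WT 3 they were 0.33 (ER), -0.47 (cholesterol), -0.21 (clock) and 7.34 (pancreas), and with only KO 1 to 3 and WT 3 0.34 (ER), -0.21 (cholesterol), 0.029 (lipid droplet) and 0.27 (pancreas). Without single arrays they ranged from 0.22 to 0.28 (ER), -0.40 to -0.21 (cholesterol), -0.43 to -0.15 (lipid droplet), -0.62 to -0.33 (clock) and 3.29 to 6.63 (pancreas). Signs turned for *Mapk9* (0.66 with only KO 1 to 3 and WT 3, and -0.39 to 0.20 without single arrays), *Per2* (0.04 without KO 1, KO 2 and WT 3), *Plin2* (0.27 with only KO 1 to 3 and WT 3), *Nr1d1* (0.49 with the same arrays, -0.45 to 0.02 without single arrays) and the liver minus fat difference of *Mapk8* (0.01; -0.41 with fat WT 2, -0.35 with the slide block, -0.44 to 0.29 without single arrays). The causes were not tested.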
